A study of Rattus norvegicus with 6 samples.

Results

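Cytotoxic lymphocytes, which are natural killer cells and cytotoxic T cells, kill a target cell by releasing granules that hold perforin, a protein that opens the target membrane, and granzymes, serine proteases that enter the target and start its death. Release is governed by killer receptors on the surface, some activating and some inhibitory, many of which read class I histocompatibility molecules. In the epididymis, the duct in which sperm mature, lymphocytes lie within and around the epithelium and are among the cells known there as halo cells. The genes described here are granzymes, killer cell lectin-like receptors of the Klr and Ly49 families and a set of named partners: Prf1, Nkg7, Cd7, Ncr1, Ncr3, Tbx21, Eomes, Cd244 and Fasl. They were chosen by gene symbol, with earlier results of the same data known, and the only measured value used in the choice was the mean over the 6 arrays, which picked 1 probe set where a gene had several. The choice gave 43 measured genes of 18166 named genes, made up of 8 granzymes, 16 Ly49 receptors, 12 other lectin-like receptors and 7 further genes. The symbols Cd244 and Fasl matched no probe set with a single symbol, so neither is among the 43 genes. Fas ligand under the symbol Faslg, and the related Cd244l1, are described at the end.

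Cells of the epididymis of 3 Sprague-Dawley rats aged 48 days were separated magnetically into basal cells and the remaining, non-basal cells, and 3 Affymetrix RaGene 2.0 ST arrays were run for each of these fractions. The labels name no treatment, no marker used for the separation and no animal for any array, so each p reflects the spread among arrays and may be technical. Arrays are numbered as the labels number the replicates. Values are log2 expression after robust multi-array averaging (RMA), differences are basal minus non-basal, and a gene was called at a limma p-value under 0.05 after Benjamini-Hochberg adjustment over all 18166 genes. Array medians lay between 6.63 and 6.70, and the number of arrays limits the precision. As a check of the labels, all 8 measured basal epithelial markers were higher in the basal fraction, among them Krt14 and Tp63 by 3.40 and 3.10 log2 units. Because whole fractions were measured, fewer cells of a type and less RNA per cell cannot be told apart.

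The granule genes and part of the lectin-like receptors were lower in the basal fraction, whereas no Ly49 receptor passed the test. Of the 43 genes 12 were lower, 0 were higher and 31 did not pass in limma. At an unadjusted p under 0.05, 19 were lower and 0 higher. Over all named genes 7.14% were lower and 7.71% higher. The median log2 difference of the 43 genes was -0.21, against 0.00343 over all named genes, and ranged from -4.02 for Gzmf to 0.47 for Ly49si3. By role, 5 of 8 granzymes, 3 of 12 lectin-like receptors outside the Ly49 family, 0 of 16 Ly49 receptors and 4 of the 7 further genes were lower. In 19 of the 43 genes every basal array lay below every non-basal array, which was so in 15.3% of all named genes, and 32.9% of all named genes did not overlap in either direction. The count depended on single arrays, and so did the share of all named genes that were lower. The count was 6 without basal array 1, basal array 2, non-basal array 2 or non-basal array 3. Those fits had 3.47%, 3.18%, 3.51% and 2.98% of all named genes lower. The count was 12 without basal array 3 (8.12% of all named genes) and 16 without non-basal array 1 (8.85%). Without basal array 3 and non-basal array 1 together, a choice made after the data were seen, 15 were lower (11.7%).

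**Figure D1:**
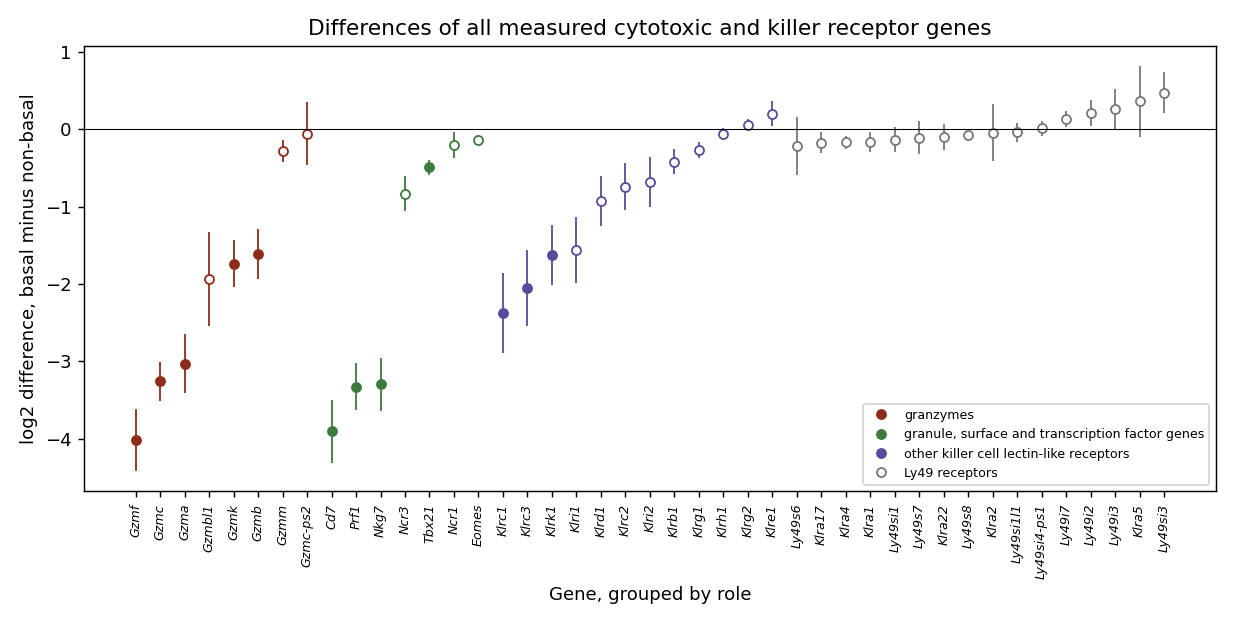
The log2 difference, basal minus non-basal, of all 43 genes is plotted by role, with bars of 1 standard error from limma; filled points passed the test and open points did not. Granzymes, Cd7, Prf1 and Nkg7 reach the most negative values, down to -4.02, while the 16 Ly49 receptors lie between -0.21 and 0.47.

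Genes for the contents and the membrane of the cytotoxic granule had 5 of the 6 differences beyond 3 log2 units, and the surface protein gene Cd7 had the other one. Gzmf, a granzyme of the cluster around granzyme B on chromosome 15, had values of 5.97, 7.26 and 7.45 on basal arrays 1 to 3 and of 10.76, 11.18 and 10.80 on non-basal arrays 1 to 3. The fractions were far apart, with basal array 1 lowest of the 6 arrays. Gzmf averaged 6.89 ± 0.806 (SD, n = 3) and 10.91 ± 0.234 (n = 3), a log2 difference of -4.02 ± 0.398 (SE), or 16.2-fold lower in the basal fraction (limma adjusted p = 0.00315).

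Gzmc, a granzyme of the same cluster, had values of 7.08, 7.24 and 7.51 in the basal and 10.02, 10.97 and 10.61 in the non-basal fraction. The basal arrays were close together and all non-basal arrays stood above them. The log2 difference was -3.26 ± 0.253, or 9.58-fold lower (limma adjusted p = 0.00217). Prf1, which encodes perforin, had basal values of 6.01, 5.96 and 6.76 and non-basal values of 9.06, 9.84 and 9.82, a log2 difference of -3.33 ± 0.303. Basal array 3 was the highest basal array and non-basal array 1 the lowest non-basal array, and they still differed by more than the spread within either fraction. Nkg7, a granule membrane protein needed for granule release, had basal values of 6.08, 6.05 and 6.76 and non-basal values of 8.94, 10.14 and 9.71. Its order of arrays within the non-basal fraction was that of Prf1, and its log2 difference was -3.30 ± 0.346 (limma adjusted p = 0.00361).

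The sequences before the start sites of these genes are shown because Gzmf, Prf1 and Nkg7 had the largest differences among the genes with a RefSeq promoter here and Gzmc is the close relative of Gzmf. Each is the 250 bases before the start of the gene, 5′ to 3′ on the strand of the gene, from RefSeq in the GRCr8 build. Capitals mark letters searched on both strands: TGTGGT, the core of sites for RUNX factors, GTGTGA, the core of T-box sites, AGGAAG, an ETS core, and TGACGTC, most of a cAMP response element.
Gzmf (chr15:33988888-33989137, minus strand): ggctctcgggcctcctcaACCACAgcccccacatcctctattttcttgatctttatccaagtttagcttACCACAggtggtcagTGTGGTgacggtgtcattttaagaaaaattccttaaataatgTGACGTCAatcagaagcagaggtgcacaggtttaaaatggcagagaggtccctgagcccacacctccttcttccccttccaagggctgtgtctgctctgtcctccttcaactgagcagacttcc
Gzmc (chr15:34440007-34440256, minus strand): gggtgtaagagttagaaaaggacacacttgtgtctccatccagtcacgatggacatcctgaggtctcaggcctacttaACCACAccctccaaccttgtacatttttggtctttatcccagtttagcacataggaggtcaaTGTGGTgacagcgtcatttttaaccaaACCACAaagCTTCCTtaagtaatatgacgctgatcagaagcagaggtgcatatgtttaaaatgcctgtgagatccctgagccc
Prf1 (chr20:29788790-29789039, plus strand): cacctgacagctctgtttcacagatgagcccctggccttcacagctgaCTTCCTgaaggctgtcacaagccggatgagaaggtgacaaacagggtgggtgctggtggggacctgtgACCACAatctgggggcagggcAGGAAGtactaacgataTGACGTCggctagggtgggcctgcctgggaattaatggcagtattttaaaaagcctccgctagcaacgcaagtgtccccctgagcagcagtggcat
Nkg7 (chr1:102981247-102981496, plus strand): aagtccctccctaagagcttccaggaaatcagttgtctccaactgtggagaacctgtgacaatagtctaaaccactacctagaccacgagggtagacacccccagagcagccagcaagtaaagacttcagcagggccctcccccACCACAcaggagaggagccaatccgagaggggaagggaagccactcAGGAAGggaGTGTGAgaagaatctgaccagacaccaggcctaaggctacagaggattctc
The Gzmf and Gzmc sequences are alike: in their best local alignment 148 of 191 columns (77.5%) held the same base, against 142 of 249 (57.0%) for Gzmb with Gzmf and 130 of 236 (55.1%) for Gzmb with Gzmc. TGTGGT or its complement occurred 3 times in Gzmf and 3 times in Gzmc, and once each in Prf1 and Nkg7. In Gzmf, TGACGTC was found on both strands at overlapping positions, 1 base apart, and in Prf1 once. Nkg7 held the T-box letters once, 51 to 46 bases before the start, close to an ETS core. Promoter sequences were matched for 35 of the 43 genes. TGTGGT was present in 9 of the 11 matched genes that were lower, in 16 of all 35 and in 1 of 14 Ly49 receptors, against 14.5% of 33469 promoter windows of the same length. The T-box letters were in 4 of those 11, the ETS core in 3 and TGACGTC in 3, against 11.6%, 29.5% and 2.80% of all windows. The letters were chosen after the sequences of these genes had been read, so these counts are a description, and a match is not evidence of binding.

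Gzma, a tryptase-like granzyme encoded on chromosome 2, apart from the granzyme B cluster, had basal values of 5.06, 6.04 and 6.21 and non-basal values of 8.27, 9.27 and 8.85. Every non-basal array stood above every basal one, and the log2 difference was -3.03 ± 0.379, or 8.17-fold lower (limma adjusted p = 0.00558). Gzmk, the tryptase-like neighbour of Gzma, had basal values of 5.43, 5.62 and 5.40 and non-basal values of 6.49, 7.65 and 7.52, with a log2 difference of -1.74 ± 0.307 (adjusted p = 0.016). Non-basal array 1 was the nearest to the basal arrays but did not overlap them. Gzmb, the granzyme that cleaves after aspartate, had basal values of 5.48, 5.40 and 5.97 and non-basal values of 6.58, 7.73 and 7.39. Its log2 difference was -1.61 ± 0.319 (adjusted p = 0.0233), again with non-basal array 1 lowest in its fraction. The calls of Gzmk and Gzmb were lost without basal array 1, basal array 2, non-basal array 2 or non-basal array 3, with adjusted p up to 0.0812 and 0.108.

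Among the other granzymes, Gzmbl1, a granzyme B-like gene, was dim, with basal values of 3.64, 3.55 and 4.52 and non-basal values of 4.63, 5.92 and 6.98. The difference of -1.94 ± 0.611 did not pass (limma adjusted p = 0.0931). Gzmm, a granzyme that prefers methionine, had basal values of 7.19, 7.07 and 6.78 and non-basal values of 7.12, 7.28 and 7.49. These overlapped, and the difference of -0.29 ± 0.142 did not pass (adjusted p = 0.239). The pseudogene Gzmc-ps2 had a difference of -0.06 ± 0.41 (adjusted p = 0.942). Granzyme genes of this cluster are near copies of each other, so the share of signal that belongs to each is uncertain. Gzmb alone had several probe sets: beside the one used, the next had a difference of -1.73 ± 0.29 and the last, at an overall mean of 3.42, one of -0.10 ± 0.125. Of the 5 probe sets assigned jointly to Gzmn and Gzmfl1, which were left out, 1 was lower at -1.42 ± 0.275 (limma adjusted p = 0.0358 over all 36685 probe sets), and the other 4 had differences of -0.32 to 0.10 and did not pass.

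**Figure D2:**
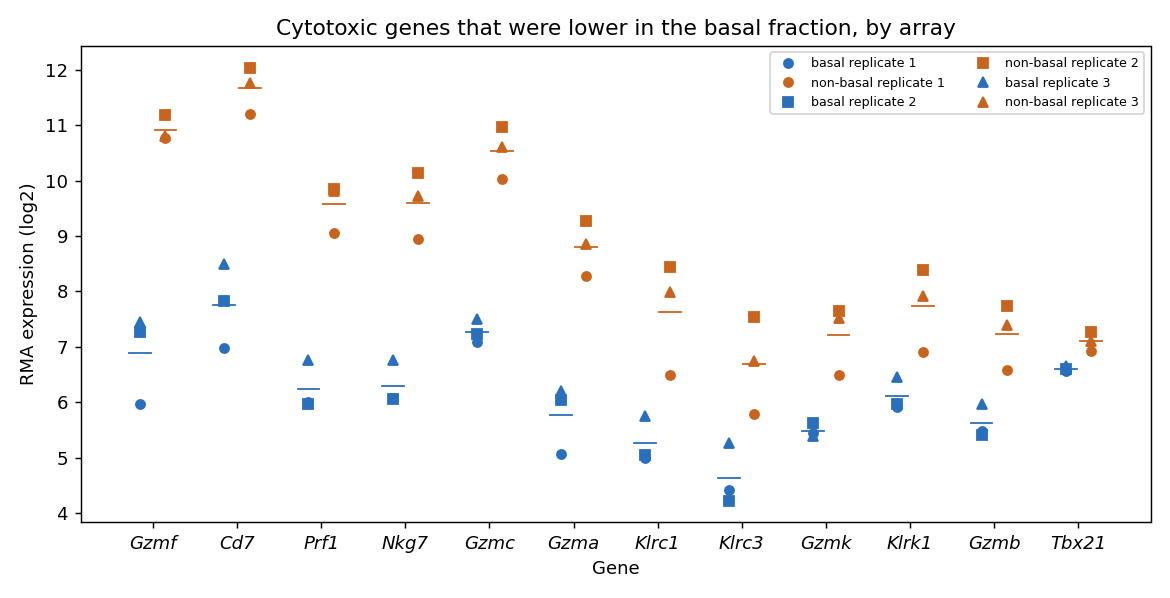
The log2 RMA value of each array is plotted for the 12 genes that were lower in the basal fraction, blue for basal and orange for non-basal arrays, with a symbol for each replicate and a line at the mean of each fraction. Non-basal array 1 is the lowest orange point and non-basal array 2 the highest in all 12 genes, and no orange point falls below a blue one within a gene.

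Among surface proteins and transcription factors, Cd7, an immunoglobulin-like protein on the surface of many lymphocytes, had basal values of 6.97, 7.82 and 8.49 and non-basal values of 11.21, 12.04 and 11.76. The basal arrays varied more than the non-basal ones but lay well below them, and the log2 difference was -3.91 ± 0.412, or 15.0-fold lower (limma adjusted p = 0.00363). Tbx21, which encodes T-bet, the factor of type 1 effector lymphocytes, had basal values of 6.57, 6.60 and 6.65 and non-basal values of 6.93, 7.26 and 7.10. The difference was small, -0.49 ± 0.0978, and passed the test (adjusted p = 0.0238). The SDs were 0.0426 and 0.167, and the call was lost without basal array 1, basal array 2, non-basal array 2 or non-basal array 3, with adjusted p up to 0.0974. Eomes, the T-box relative of Tbx21, had basal values of 7.20, 7.12 and 7.08 and non-basal values of 7.22, 7.31 and 7.28, a difference of -0.14 ± 0.0652 that did not pass (adjusted p = 0.223), although the fractions did not overlap.

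The natural cytotoxicity receptors did not pass, but Ncr3 lay near the threshold. Ncr3, which encodes NKp30, had basal values of 6.22, 6.18 and 6.24 and non-basal values of 6.51, 7.21 and 7.42, a difference of -0.83 ± 0.23 (limma adjusted p = 0.0654). The fractions did not overlap, and without non-basal array 1 the adjusted p was 0.00363, against up to 0.201 without another array. Ncr3 also passed with renewed quantile normalization (adjusted p = 0.0421), with centred arrays (0.0421) and with array weights (0.00653). It passed too among genes with a fraction mean of at least 7 (0.0384), a filter that took the higher mean. Ncr3 met that filter only by its non-basal mean of 7.05, against a basal mean of 6.21, so nothing is read from this pass. Ncr1, which encodes NKp46, had basal values of 5.71, 5.51 and 5.90 and non-basal values of 5.59, 6.01 and 6.13. These overlapped, and the difference was -0.20 ± 0.169 (adjusted p = 0.466).

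The receptors that pair with CD94 were lower in part. Klrc1, which encodes the inhibitory receptor NKG2A, had basal values of 4.99, 5.05 and 5.74 and non-basal values of 6.49, 8.43 and 7.98. The non-basal arrays spread over a wide range with array 1 lowest, and the log2 difference was -2.38 ± 0.521, or 5.19-fold lower (limma adjusted p = 0.0325). Klrc3, the NKG2E gene, had basal values of 4.42, 4.22 and 5.27 and non-basal values of 5.79, 7.54 and 6.74, with a difference of -2.06 ± 0.491 (adjusted p = 0.042). Klrc2, the gene of the activating NKG2C, had a difference of -0.75 ± 0.305 that did not pass (adjusted p = 0.166), with overlapping fractions. Klrd1, which encodes CD94 itself, had basal values of 6.10, 5.55 and 5.58 and non-basal values of 6.10, 7.28 and 6.63. Basal array 1 and non-basal array 1 held the same value, and the difference of -0.93 ± 0.318 did not pass (adjusted p = 0.114).

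Klrk1, which encodes the activating receptor NKG2D, had basal values of 5.91, 5.97 and 6.46 and non-basal values of 6.91, 8.39 and 7.92. Its log2 difference was -1.63 ± 0.387 (limma adjusted p = 0.0415), and non-basal array 1 lay close to basal array 3. The Klrk1 call held without non-basal array 1 and was lost without any other single array, with adjusted p up to 0.156, and the calls of Klrc1 and Klrc3 held without basal array 3 or non-basal array 1 only, with adjusted p up to 0.133 and 0.16. Klri1, a receptor that pairs with the product of Klre1, had basal values of 4.67, 5.72 and 5.35 and non-basal values of 6.13, 7.60 and 6.69, a difference of -1.56 ± 0.432 (adjusted p = 0.0654). Its partner Klre1 was dim in both fractions, with means of 4.05 and 3.85, and had a difference of 0.20 ± 0.161 (adjusted p = 0.453). The remaining lectin-like receptors, Klri2, Klrb1, Klrg1, Klrh1 and Klrg2, had differences of -0.68 to 0.06 and did not pass. Klrg2 had basal values of 8.43, 8.41 and 8.25 and non-basal values of 8.28, 8.28 and 8.36. They overlapped, and the difference was 0.06 ± 0.0747 (adjusted p = 0.638). The probe set shared by Klrb1a and Klrb1b, left out because it carries both symbols, was lower at -1.57 ± 0.273 (limma adjusted p = 0.0261 over all probe sets), and a second shared one had -1.30 ± 0.309 (adjusted p = 0.0635).

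All 16 Ly49 receptors, the rodent receptors of class I molecules, were dim. Their values lay between 2.21 and 6.57 on every array, and their means were under 7 in both fractions, and under 5 in both for 10 of them. None passed in limma, 0 lay at an unadjusted p under 0.05, and the median difference was -0.06. The largest differences were those of Ly49si3, at 0.47 ± 0.267 (limma adjusted p = 0.292), and Klra5, at 0.36 ± 0.455 (adjusted p = 0.635), in which non-basal array 3 alone was low. In 7 of the 16 receptors at least 2 arrays held exactly the same value, as in 35.3% of all named genes and in 0 of the 12 genes that were lower. No difference was detected at these levels. Ly49 genes are near copies of each other and 4 further probe sets with several Ly49 symbols were left out. Of these, the probe set shared by Ly49si2 and Ly49si3 had a difference of -0.36 ± 0.14, opposite in sign to that of Ly49si3 above. Its unadjusted limma p was 0.0416, and it did not pass (adjusted p = 0.188 over all probe sets). The others had differences of -0.17 to 0.03 and did not pass.

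All 28 measured receptors of the Klr and Ly49 families lie on chromosome 4 in RefSeq, most of them in the natural killer gene complex. The 7 consecutive measured receptors from Klrd1 to Klri2, which are Klrd1, Klrk1, Klrc3, Klrc2, Klrc1, Klri1 and Klri2, all had negative differences, from -2.38 to -0.68. They held all 3 of the 28 receptors that were lower. No rule set in advance gave the ends of this run. The probe set shared by Klrb1a and Klrb1b, also lower at -1.57, was left out of this order. The Ly49 genes, which begin after Klrh1, lay between -0.21 and 0.47. Of 14 other named genes between Klrb1 and Klra2, 2 were lower and 1 higher: Cd69, an early activation marker of lymphocytes, at -1.32 (limma adjusted p = 0.0396), Olr1, a scavenger receptor, at -1.65 (adjusted p = 0.0399) and Clec2e at 0.30 (adjusted p = 0.0288).

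**Figure D3:**
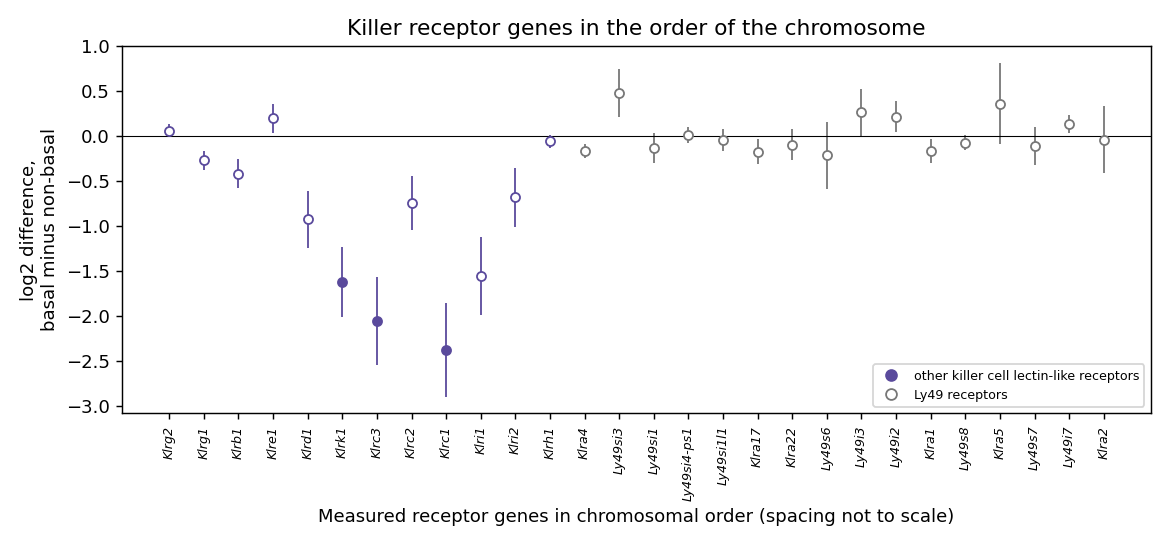
The log2 difference, basal minus non-basal, of 28 receptor genes is plotted in chromosomal order with spacing not to scale, purple for lectin-like receptors outside the Ly49 family and grey for Ly49 receptors, with bars of 1 standard error; filled points passed and open points did not. The points from Klrd1 to Klri2 lie at -0.68 or lower, and the grey points stay between -0.21 and 0.47.

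The 12 genes that were lower shared the order of the non-basal arrays, and the order of the basal arrays only in part. The lowest basal value was on basal array 1 in 7 genes, on basal array 2 in 4 and on basal array 3 in 1. Non-basal array 1 had the lowest and non-basal array 2 the highest non-basal value in 12 of 12, and basal array 3 had the highest basal value in 11 of 12. Over all 18166 named genes these orders occurred in 6967, 5480 and 5942. How often they occurred among all named genes that were lower was not counted. The mean deviation of the 12 genes from the 6-array mean of each gene was -1.61, -1.34 and -0.888 on basal arrays 1 to 3 and 0.677, 1.76 and 1.41 on non-basal arrays 1 to 3. These genes had been picked as lower on the same arrays. Over all 43 genes the mean deviation ran from -0.574 on basal array 1 to 0.663 on non-basal array 2, in the same order of arrays. Mean deviations of the T cell, mast cell and fibroblast markers described below had the same order, so it was not particular to the killer genes. Those of the pan-leukocyte markers had it in the non-basal fraction only, and in the endothelial markers non-basal array 1 was highest in its fraction. The calls of Gzmf, Cd7, Prf1, Nkg7, Gzmc and Gzma held in all 6 fits that left out 1 array, with a highest adjusted p of 0.0421, for Gzma without non-basal array 3. These 6 were also the genes lower by more than 3 log2 units, a size reached by 0.374% of all named genes.

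Markers of leukocytes in general were also lower, whereas 3 or fewer markers of each single leukocyte type passed. Over all named genes 7.14% were lower, and 2.98% to 8.85% with 1 array left out. The median log2 difference was -1.61 for the pan-leukocyte, -0.60 for the T cell, -0.57 for the mast cell, -0.49 for the macrophage, -0.07 for the B cell and 0.04 for the neutrophil list, against 0.00343 over all named genes. Of 10 pan-leukocyte markers 7 were lower, led by Ptprc at -1.98 ± 0.365 (limma adjusted p = 0.0189), Cd53 at -1.95 ± 0.367 and Laptm5 at -1.66 ± 0.32. Their summed linear signal was 9453 to 11841 on basal and 17396 to 18859 on non-basal arrays. None of the 10 passed without basal array 1, basal array 2, non-basal array 2 or non-basal array 3, 3 passed without basal array 3 and 8 without non-basal array 1. Of 13 T cell markers 3 were lower, Cd28, Cd8a and Cd2, at -1.74 ± 0.282, -1.55 ± 0.34 and -2.29 ± 0.561, and their summed signal was 1655 to 1898 on basal and 1595 to 4154 on non-basal arrays. The count was 0 without basal array 1 or 2, 2 without basal array 3, 9 without non-basal array 1 and 1 without either other non-basal array. In 9 of the 13 T cell markers every basal array lay below every non-basal array, against 15.3% of all named genes. The defining T cell marker Cd3e was dim, with means of 5.51 and 6.04 and a difference of -0.53 (adjusted p = 0.176), and Cd4 had -0.63 (adjusted p = 0.445).

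Of 12 mast cell markers 2 were lower, Mcpt9 at -2.33 ± 0.358 and Mcpt10 at -2.27 ± 0.436, with a summed signal of 589 to 667 on basal and 780 to 1454 on non-basal arrays. The count was 7 without non-basal array 1, 0 without non-basal array 3 and 1 without any other array. Of 13 macrophage markers 1 was lower, Ctss, a share near the 7.14% of all named genes, with a summed signal of 9823 to 14024 on basal and 10905 to 21427 on non-basal arrays, and 8 passed without non-basal array 1, 1 without basal array 2 and 0 without any other array. Of 6 B cell and 8 neutrophil markers 0 passed in limma, with 0 and 2 at an unadjusted p under 0.05. Of 7 principal cell markers 1 was lower, 6 were without basal array 3, 1 without non-basal array 1 and 0 without any other single array. Their part in the differences of the killer genes was not tested, nor was that of 7 of 7 fibroblast and 6 of 6 endothelial markers that were also lower, 2 of the 7 without basal array 2 or either of non-basal arrays 2 and 3. Set against the mean of the 10 pan-leukocyte markers on the same array, which was itself lower by a log2 difference of -1.39, 7 of the 12 genes still had every basal array below every non-basal one. All 12 had done so before the subtraction, having been picked as lower on these same arrays. Their 7 of 12 is therefore not comparable with the 1.33% of all named genes that did so after the subtraction. Of all 43 genes chosen by symbol, 7 had every basal array below every non-basal one after it, and 28 had every basal array above. Gzmk was among the 7 by a very narrow margin, with a highest basal value of -2.598 and a lowest non-basal value of -2.594. The relative difference was -2.63 for Gzmf, -2.52 for Cd7, -1.94 for Prf1, -1.91 for Nkg7, -1.87 for Gzmc, -1.64 for Gzma and -0.34 for Gzmk. It was between -0.98 and -0.22, with overlap, for Klrc1, Klrc3, Klrk1 and Gzmb, and 0.90 for Tbx21. After the subtraction 91.4% of all named genes were higher on every basal array, so nothing is read from such values, Tbx21 included. These relative values are a description, with no test.

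**Figure D4:**
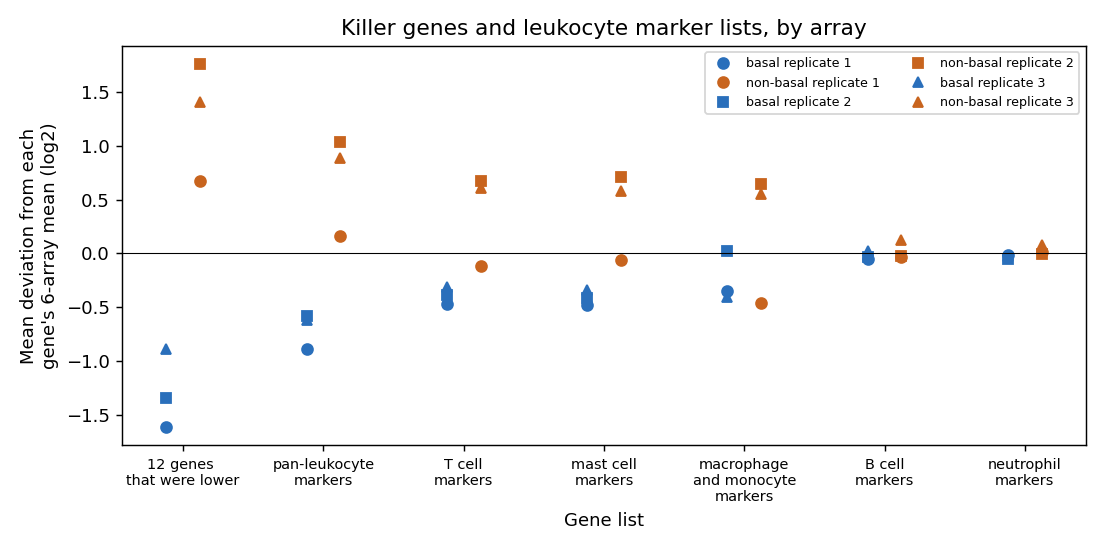
The mean log2 deviation from the 6-array mean of each gene is plotted for each array, for the 12 killer genes that were lower and for 6 leukocyte marker lists, blue for basal and orange for non-basal arrays. Of the sets plotted, the killer genes and the pan-leukocyte markers span the widest ranges, from -1.61 to 1.76 and from -0.889 to 1.03. The 12 killer genes had been picked as lower on these same arrays, so their range cannot be compared with those of the lists. The mean deviation of all 43 genes, which is not plotted, runs from -0.574 to 0.663. Non-basal array 1 is the lowest orange point in every list plotted except the neutrophil list. The fibroblast markers, which are not plotted, span a wider range than any set plotted.

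Of the genes that work with the killer receptors some were lower, beside 7.14% lower and 7.71% higher over all named genes. With 1 array left out, the share lower over all named genes ranged from 2.98% without non-basal array 3 to 8.85% without non-basal array 1. The median log2 difference was -0.48 for adaptors and kinases, -0.57 for cytokine receptors, -0.61 for effector cytokines, -0.72 for residency and trafficking receptors and -0.03 for transcription factors. Of 20 adaptors and kinases 5 were lower, among them Zap70, a kinase of T cell receptor signalling, at -0.75 ± 0.106 (limma adjusted p = 0.00798), the Src family kinase Fyn at -1.27 ± 0.205 and Lck at -1.24 ± 0.258. The adaptor genes of killer receptors, Tyrobp and Hcst, had differences of -1.23 ± 0.372 and -0.96 ± 0.293 and did not pass (adjusted p = 0.0826 and 0.0847). The count was 1 without basal array 1, basal array 2 or non-basal array 3, 2 without non-basal array 2 and 11 without non-basal array 1. Of 8 cytokine receptors 3 were lower: Il12rb2, a chain of the interleukin 12 receptor, at -1.66 ± 0.0647 (adjusted p = 0.000908), Il2rg, the common gamma chain, at -2.20 ± 0.278 and Il21r at -0.97 ± 0.189. The count was 5 without non-basal array 1. Without basal array 1, basal array 2, non-basal array 2 or non-basal array 3 it was 2.

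Of 10 effector cytokine genes 3 were lower, the chemokines Ccl5 and Xcl1 at -1.92 ± 0.293 and -1.23 ± 0.195 and interferon gamma, Ifng, at -0.59 ± 0.121 (limma adjusted p = 0.0271). The count was 1 without basal array 1 or non-basal array 2, 0 without basal array 2 or non-basal array 3 and 6 without non-basal array 1. Of 11 residency and trafficking receptors 4 were lower, S1pr1 at -1.01 ± 0.114, the collagen-binding integrin Itga1 at -1.62 ± 0.241, Cxcr6 at -0.72 ± 0.163 and Cd69. The count was 2 without basal array 1, basal array 3, non-basal array 2 or non-basal array 3, 1 without basal array 2 and 8 without non-basal array 1. Of 14 transcription factors of innate lymphoid and cytotoxic T cells 5 were lower and 3 higher. Bcl11b, Ets1 and Zbtb16 were higher by 1.31 ± 0.172, 1.54 ± 0.227 and 0.83 ± 0.145, and Ikzf1, Ikzf3 and Runx3 were among those lower, at -1.41 ± 0.214, -1.96 ± 0.334 and -1.40 ± 0.298. Without basal array 1, basal array 2, non-basal array 2 and non-basal array 3 in turn, 1, 0, 1 and 0 were lower and 1, 1, 2 and 3 higher.

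The general machinery of granule release showed few calls: 2 of 16 genes were lower, 2 were higher and 12 did not pass, near the 7.14% and 7.71% of all named genes, with a median of 0.01. The genes lower were the granule proteoglycan gene Srgn at -1.48 ± 0.161 (limma adjusted p = 0.00391) and Rab27a, which docks granules, at -0.86 ± 0.0958. The fusion genes Stx11 and Unc13d were higher by 1.48 ± 0.235 and 0.83 ± 0.134. Without non-basal array 1, 4 were lower and 4 higher. Higher calls numbered 1 without basal array 1 or non-basal array 3 and 0 without basal array 2 or non-basal array 2. Of 18 genes for ligands of killer receptors 4 were lower and 4 higher, with a median of -0.13. Cd48, the ligand of CD244, and Clec2d2 were lower, at -0.88 ± 0.126 and -1.77 ± 0.253, and the cadherins Cdh4 and Cdh1, bound by KLRG1, were higher by 1.17 ± 0.13 and 0.89 ± 0.117. Without basal array 1, basal array 2 or non-basal array 2, 2 were lower and 2 higher, and without non-basal array 3, 0 and 2. Among 8 granzyme inhibitors and targets, Serpinb9, the inhibitor of granzyme B, was lower at -0.60 ± 0.0711 (adjusted p = 0.0049), and Serpinb1a was higher by 2.63 ± 0.385. The median of that list was 0.06. Without basal array 1 or 2 no gene of it was higher, and without basal array 3, 3 were.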

How the data were processed

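Per the submitters' processing notes, RMA in Affymetrix Expression Console gave the log2 values deposited; versions and genome build are not given in the sources used here. RMA equalizes array distributions and compresses differences of dim probe sets. Of 36685 probe sets, 18511 carried 1 symbol in the platform annotation, which gave 18166 genes; the highest mean over 6 arrays decided between probe sets. Differences were fitted in R 4.3.3 with limma 3.58.1 (lmFit, eBayes; 4 residual degrees of freedom, no filter on dim genes), after the procedure had been tested on simulated data. The members, lists and motifs were chosen with earlier results of these data known. The rule for names took all members called, other members with a fraction mean of at least 7, Ncr1, the 3 genes of smallest p in each list, and Ptprc, Cd3e, Cd8a, Cd4, Krt14 and Tp63. Not every gene it took is named above. Fewer than 3 are named for the mast cell, macrophage, basal epithelial and granzyme inhibitor lists. None is named for the B cell, neutrophil, principal cell, fibroblast and endothelial lists. Named after their values were seen were the remaining members and Tyrobp, Hcst, Cd48, Ikzf3, Runx3, Zbtb16, Unc13d, Cd69, Olr1 and Clec2e. Gene order and promoters came from RefSeq GRCr8 (all 43 members matched by Entrez gene identifier, 0 with another symbol), and local alignments from Biopython 1.88. Alternatives were a replicate block, other normalization and centring, filters at 5 and 7, trend with robust spread, array weights, mean of probe sets, all probe sets, other thresholds and each array left out.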

Additional observations from a re-analysis of the deposited data

How the results depend on the processing

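The 12 genes lower in the basal fraction numbered 12 to 17 under renewed quantile normalization, centring, both filters on dim genes, trend with robust spread, array weights and the mean of probe sets, 9 with all probe sets in the adjustment, where Klrc1, Klrc3 and Klrk1 were lost, 6 at an adjusted p under 0.01 and 15 at one under 0.1. Of all genes tested, 7.15% to 12.8% were lower in the fits listed with 12 to 17. The share was 5.41% with all probe sets in the adjustment, 3.06% at 0.01 and 10% at 0.1. With 1 array left out the count ranged from 6 to 16, beside 2.98% to 8.85% of all named genes. Under any alternative 0 members were higher. The median log2 difference of the members ranged from -0.35 to -0.21 with 1 array left out. It was -0.75 over the 31 genes that passed the filter at 5 and -1.74 over the 15 that passed the filter at 7. The filters took the higher of the fraction means, so genes bright only in the non-basal fraction passed. The filtered medians are therefore pushed toward negative values, and nothing is read from them or from the counts of lower genes under these filters. Over all named genes, deviations of arrays of the same number were nearly uncorrelated between the fractions, at 0.0312, 0.0383 and 0.0278. With 3 arrays per fraction and no animal named for any array, these values cannot decide whether the numbers pair the samples. With the replicate block 12 genes were lower, 10 of them among the 12 above; Klrc3 (limma adjusted p = 0.062) and Tbx21 (0.0522) lost their calls. The cause of these shifts was not tested. Of 17 members followed singly through the alternatives, none changed sign; the other named genes were not followed singly. The dimness of the Ly49 genes and 3 arrays per fraction limit what can be detected.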

Other observations

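Under their RefSeq symbols, Fas ligand and a CD244-like receptor were measured although their symbols lay outside the chosen names. Faslg, the death ligand of cytotoxic cells, averaged 6.26 on basal and 7.20 on non-basal arrays, a difference of -0.93 ± 0.267 that did not pass (limma adjusted p = 0.0718). The fractions met without overlap, at basal replicate 3 and non-basal replicate 1. Cd244l1 had basal values of 4.52, 5.31 and 4.93 and non-basal values of 5.36, 6.91 and 5.94, a difference of -1.15 ± 0.416 (adjusted p = 0.128).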
